A study of Mus musculus with 12 samples.

Results

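The genes described here carry the Wnt signalling pathway in RNA recovered from the basolateral amygdala (BLA) of mice. They were chosen by symbol: all Wnt ligands, Frizzled receptors, Dishevelled, Dkk, Sfrp, Axin, Nkd and Tcf7-type genes with a numbered symbol, together with Lrp5, Lrp6, Lef1, Porcn, Ryk, Ror1, Ror2, Frzb, Wif1, Ctnnb1, Apc and Gsk3b. On the array 126 probe sets with 1 symbol matched, out of 45037 that are not controls, and they stand for 59 genes out of 20752. Each gene was represented by its brightest probe set, and 33 of the 59 passed a filter on dim signal (a mean RMA value over all 6 arrays above 6.31, the 40th percentile). The other 26 had means between 3.56 and 6.23 and were not tested.

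Mice given footshocks (shock) were compared with mice exposed to a female mouse (female). In both groups FLAG-tagged PABPC1, which binds poly(A) tails, was made in the BLA under the promoter of fos, a gene switched on by neuronal activity, and RNA was recovered by pulling down the tag. What was recovered therefore depends on where and when that promoter was active, and no sample without the tag was analysed here. Each group had 3 Affymetrix Mouse 430 2.0 arrays, with RMA and MAS5 values for each array. The design note gives pools of 2 mice and 3 mice in a group, so arrays of a group may share mice. Strain, age and the interval between exposure and dissection were not found in the labels.

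Wnt proteins are secreted glycoproteins that carry a lipid added by the acyltransferase Porcn. At the cell surface they bind Frizzled receptors together with the co-receptors Lrp5 or Lrp6, and Dishevelled then disables a cytoplasmic complex of Axin, Apc and Gsk3b that otherwise marks beta-catenin (Ctnnb1) for degradation, so that beta-catenin can act with Tcf7-type factors and Lef1 in the nucleus. Other branches act through Ryk, Ror1, Ror2, planar polarity proteins and calcium, and Dkk, Sfrp, Frzb and Wif1 proteins hold ligands or co-receptors back. In the adult brain the pathway is known for roles in synapse formation and plasticity.

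Some facts of the arrays bear on every value below. Female replicate 2 correlated at 0.978 to 0.991 with the other 5 arrays over all probe sets, and the remaining pairs at 0.991 to 0.997. The arrays also differed in how much signal lay towards the 5′ end of transcripts. Over 2647 genes, signal at the 5′ probe set minus that at the 3′ one had a median of -0.98, -0.83 and -0.89 in shock replicates 1 to 3 and of -0.71, -0.47 and -0.73 in female replicates 1 to 3 (log2), so that the groups lay apart. Of 13203 genes tested on the whole array, 20.0% passed an adjusted p of 0.05 (limma, Benjamini-Hochberg over 27022 probe sets), with 10.6% higher in shock, 9.40% higher in female, and no overlap of the groups at 48.7%. The labels do not name separate animals for the arrays, so p-values measure the spread between arrays only.

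The comparison asks which transcripts of this pathway differ between RNA recovered from the BLA after an aversive stimulus and after a rewarding one. Dvl3, Wnt2b and Porcn were higher in female, by 1.56-, 1.35- and 1.32-fold, and Fzd5 and Sfrp2 were higher in shock, by 1.34- and 1.30-fold. These 5 of 33 tested members (15.2%, against 20.0% of all genes tested) passed the test, 2 higher in shock and 3 higher in female. The other 28 did not pass, and 10 members had an unadjusted p under 0.05. Counts at an unadjusted p, here and below, were not set against the share of all genes and carry no weight alone. The median difference of shock minus female over the 33 was 0.013 (log2), against 0.061 over all genes tested. Shock and female arrays lay fully apart in 15 members (45.5%, against 48.7%). Both shares were near those of the whole array. With no filter on dim signal, 4 of the 59 members passed (Dvl3, Porcn, Wnt2b and the dim antagonist gene Wif1), against 10.5% of all genes. Among the 26 members below the filter, shock and female arrays lay fully apart in 4, against 19.0% of all genes below it.

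Dvl3 encodes a Dishevelled protein, which relays the signal from the receptor to the Axin complex. Its RMA values were 8.15, 8.16 and 7.98 in shock and 8.70, 8.97 and 8.56 in female, in the order of replicates 1 to 3 (log2; chromosome 16, positions 20516989 to 20531675, plus strand; the files name no genome build). Every female array lay above every shock array. Group means were 8.09 ± 0.10 in shock and 8.74 ± 0.21 in female (SD, n = 3 arrays), which gave a limma difference of -0.65 (SE 0.12, adjusted p = 0.0118). Leaving out 1 array at a time kept the call in 4 of 6 fits, with differences of -0.74 to -0.53. The call was lost without shock replicate 1 (adjusted p = 0.0632) and without shock replicate 3 (adjusted p = 0.0541).

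Wnt2b, a ligand of the beta-catenin branch, measured 6.70, 6.82 and 6.66 in shock and 7.02, 7.33 and 7.11 in female (log2; chromosome 3, positions 104946680 to 104961921, minus strand). Porcn, the enzyme that attaches the lipid to Wnt proteins, measured 9.59, 9.71 and 9.59 in shock and 9.92, 10.19 and 9.97 in female (chromosome X, positions 8193847 to 8206504, minus strand). In both genes all female arrays lay above all shock arrays, and female replicate 2 was the highest. The difference was -0.43 (SE 0.11, adjusted p = 0.0280) for Wnt2b and -0.40 (SE 0.11, adjusted p = 0.0321) for Porcn. Each lost its call without any 1 shock array or without female replicate 3, with adjusted p of 0.0537 to 0.108 for Wnt2b and 0.0567 to 0.117 for Porcn (limma). Without female replicate 2 both stayed called, at -0.34 (adjusted p = 0.0285) and -0.32 (adjusted p = 0.0348).

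Fzd5, a Frizzled receptor, measured 7.14, 6.68 and 6.93 in shock and 6.62, 6.37 and 6.49 in female (log2; chromosome 1, positions 64730557 to 64732476, minus strand). Sfrp2, a secreted protein that binds Wnt ligands, measured 7.001, 6.90 and 7.24 in shock and 6.80, 6.55 and 6.65 in female (chromosome 3, positions 83766320 to 83774314, plus strand). All shock arrays lay above all female arrays in both genes, but the nearest arrays of the groups were close together. The difference was 0.42 (SE 0.13, adjusted p = 0.0474) for Fzd5 and 0.38 (SE 0.12, adjusted p = 0.0498) for Sfrp2. Fzd5 kept its call without shock replicate 2 or female replicate 1, and Sfrp2 without female replicate 1. Every other array left out ended the calls, with adjusted p of 0.0662 to 0.171 for Fzd5 and 0.0691 to 0.171 for Sfrp2 (limma).

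**Figure D1:**
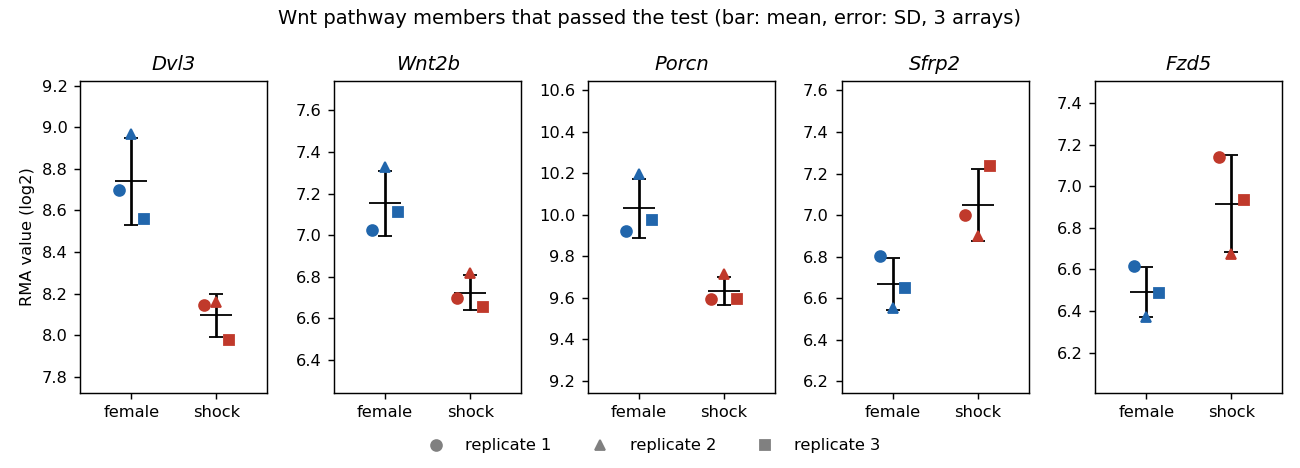
RMA value (log2) of the 5 Wnt pathway members that passed the test in each array, with the mean (bar) and SD (error) of the 3 arrays of a group; each panel spans the same number of log2 units, and markers give the replicate number. In Dvl3, Wnt2b and Porcn all female arrays lie above all shock arrays, and in Sfrp2 and Fzd5 below them.

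Once the fit also held each array's 5′ to 3′ signal, no member passed (limma, 6 at an unadjusted p under 0.05), and 1 of all 27022 probe sets did. The differences were then -0.37 for Dvl3, -0.19 for Wnt2b, -0.16 for Porcn, 0.12 for Fzd5 and 0.22 for Sfrp2. The signal does not overlap between the groups, so that its part and that of the group cannot be told apart. On MAS5 values no member passed either (limma, 9 at an unadjusted p under 0.05), against 1.95% of all genes tested. On the scale log2(value + 16) the MAS5 difference of Dvl3 was -0.70 (adjusted p = 0.0800). The others were at -0.28 for Wnt2b, -0.20 for Porcn, 0.47 for Fzd5 and 0.40 for Sfrp2. Across the 33 members the sign was the same on RMA and MAS5 values in 26. In the authors' deposited table of RMA values, the lowest FDR among the 59 members was 0.134, and the lowest over the whole table was 0.0810.

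**Figure D2:**
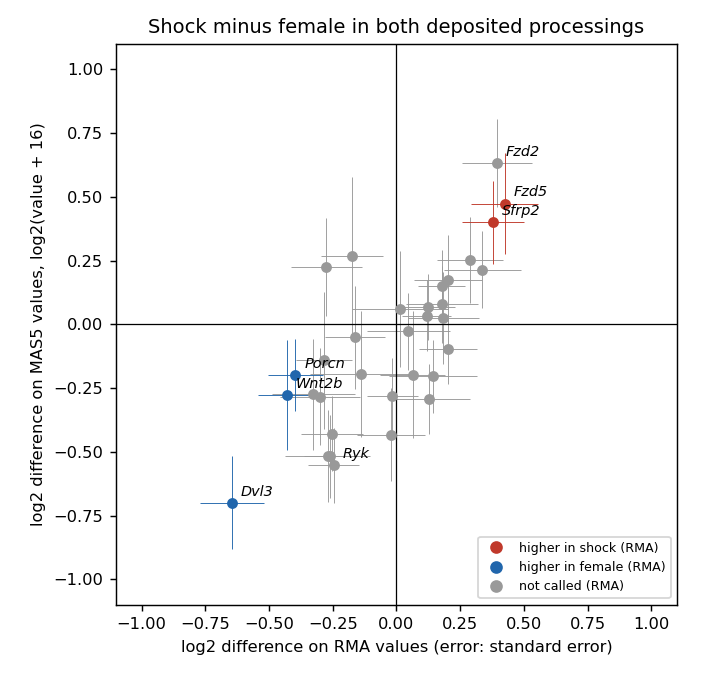
Difference of shock minus female on RMA values (horizontal, log2) and on MAS5 values (vertical, log2(value + 16)) for the 33 tested members, with standard errors; colours give the call on RMA values. All 5 called members have the same sign on both axes.

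Promoters are shown for the called members so that their letters can be set beside the values. RefSeq (GRCm38.p6) gave one for 4 of the 5, and for 42 of the 59 members. Each runs 5′ to 3′ on the strand of the gene over the 250 bases before its annotated start, at chr16:20516736-20516985 (Dvl3, plus strand), chr3:104961710-104961959 (Wnt2b, minus strand), chr1:64737751-64738000 (Fzd5, minus strand) and chr3:83766071-83766320 (Sfrp2, plus strand). Capitals mark the GC box core GGGCGG or its reverse complement CCGCCC, letters that Sp1-type factors are known to bind.
Dvl3: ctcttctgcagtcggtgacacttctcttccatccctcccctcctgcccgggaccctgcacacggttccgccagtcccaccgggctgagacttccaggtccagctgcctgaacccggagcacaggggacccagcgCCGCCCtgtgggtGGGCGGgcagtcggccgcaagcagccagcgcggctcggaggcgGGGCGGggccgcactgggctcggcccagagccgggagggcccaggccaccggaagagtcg
Wnt2b: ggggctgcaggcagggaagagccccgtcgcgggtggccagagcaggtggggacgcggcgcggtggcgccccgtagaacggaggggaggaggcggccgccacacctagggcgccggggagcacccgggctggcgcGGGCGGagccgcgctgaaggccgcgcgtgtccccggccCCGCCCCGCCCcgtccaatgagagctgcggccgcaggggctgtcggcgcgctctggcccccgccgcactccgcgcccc
Fzd5: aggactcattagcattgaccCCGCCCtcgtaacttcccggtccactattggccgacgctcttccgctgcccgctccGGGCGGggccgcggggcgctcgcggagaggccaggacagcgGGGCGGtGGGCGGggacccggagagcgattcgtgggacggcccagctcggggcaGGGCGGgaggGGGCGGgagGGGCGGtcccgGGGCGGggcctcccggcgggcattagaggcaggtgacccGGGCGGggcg
Sfrp2: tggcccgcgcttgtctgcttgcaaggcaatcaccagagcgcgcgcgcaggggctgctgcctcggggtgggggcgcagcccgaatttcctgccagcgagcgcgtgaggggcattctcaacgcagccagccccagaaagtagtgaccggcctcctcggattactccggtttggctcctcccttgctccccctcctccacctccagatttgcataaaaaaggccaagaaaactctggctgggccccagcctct
The GC box core, on both strands and with overlapping matches counted, occurred 9 times in the Fzd5 window, 3 times in those of Dvl3 and Wnt2b and 0 times in that of Sfrp2. It was in 74.5% of the 51 windows of members, against 32.7% of 32851 windows of all genes. This motif was chosen after the sequences were seen, so the contrast is a description only. G and C made up 63.6% to 80.8% of the 4 windows shown, and base composition was not compared with that of all genes. The core letters that Tcf7-type factors and Lef1 are known to bind, CTTTGAT or ATCAAAG, were in none of the 4 windows.

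Among members, that core was in the windows of Wnt5b and Wnt11 (2 of 51, 3.92%, against 3.21% of all windows), and neither gene's representative passed the filter on dim signal. Both matches are shown with their flanks, at chr6:119449436-119449472 (Wnt5b, minus strand) and chr7:98835046-98835082 (Wnt11, plus strand), with the core in capitals (RefSeq, GRCm38.p6).
Wnt5b: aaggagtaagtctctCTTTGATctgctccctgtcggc
Wnt11: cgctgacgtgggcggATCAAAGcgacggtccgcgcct
Wnt11 measured 6.05 ± 0.13 (log2, SD, n = 3) in shock and 6.22 ± 0.25 in female. For Wnt5b the representative measured 4.55 ± 0.22 and 4.61 ± 0.25, while an _x_at probe set, which can cross-hybridise to related transcripts, was higher in shock by 0.44 (SE 0.12, adjusted p = 0.0327).

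Of 19 ligand genes, 7 were tested, and Wnt2b alone passed. The median difference of the 7 was -0.25 (log2), with 5 below 0. Wnt4, a ligand with roles in both branches, measured 8.23, 8.11 and 8.52 in shock and 8.60, 8.22 and 8.85 in female, a difference of -0.27 (adjusted p = 0.250). Wnt9a, another ligand, measured 8.11, 7.90 and 8.31 in shock and 7.75, 8.16 and 7.87 in female, a difference of 0.18 (adjusted p = 0.347). In both genes the groups overlapped. Wnt7a and Wnt7b, ligands known for roles in brain vessels and synapses, were at -0.25 (adjusted p = 0.145) and -0.27 (adjusted p = 0.167). Wnt6 was at -0.17 (adjusted p = 0.307), and Wnt5a, a ligand of the branches without beta-catenin, at 0.20 (adjusted p = 0.280). Without female replicate 2, Wnt4 and Wnt7a passed, at -0.44 (adjusted p = 0.0359) and -0.36 (adjusted p = 0.0267). In that fit 6 members passed, all higher in female (20.2% of all genes tested passed), and Fzd5 and Sfrp2 did not.

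At their brightest probe sets all 6 tested Frizzled receptors had a difference above 0, with a median of 0.27, and 42.3% of all genes tested had one below 0. Each of the 6 genes also had another probe set with a difference below 0. The lowest were at -0.062 for Fzd1, -0.54 for Fzd2, -0.36 for Fzd3, -0.15 for Fzd5, -0.30 for Fzd6 and -0.29 for Fzd7. Of these only the Fzd3 probe set was bright enough to be tested, and the others lay below the filter on dim signal. Fzd3 had 6 tested probe sets, and these were of both signs. The other tested receptors had 1 tested probe set each and so could not show both signs. The shared direction is stated for the brightest probe sets, and among those Fzd5 alone passed. Fzd2 measured 8.41, 8.56 and 8.62 in shock and 8.25, 7.84 and 8.33 in female, with all shock arrays above all female arrays and a difference of 0.39 (SE 0.14, adjusted p = 0.0657). Its other probe sets, both below the filter, went the opposite way without overlap. They measured 5.69, 5.66 and 5.80 in shock and 5.92, 6.49 and 6.25 in female, and 4.41, 4.72 and 4.80 in shock and 4.93, 5.42 and 5.19 in female. When no filter was applied they passed, at -0.50 (limma adjusted p = 0.0491) and -0.54 (limma adjusted p = 0.0450), and the brightest one did not (adjusted p = 0.0873). Fzd3, known for a role in axon guidance, measured 9.65, 9.74 and 9.66 in shock and 9.49, 8.98 and 9.57 in female, again without overlap. It was at 0.34 (adjusted p = 0.123), and at 0.15 without female replicate 2. Fzd1 was at 0.20, Fzd7 at 0.18 and Fzd6 at 0.13, each with an adjusted p of 0.205 or more (limma). The signs of Fzd1 and Fzd6 turned on MAS5 values (-0.096 and -0.29), and those of Fzd1, Fzd3 and Fzd7 with the 5′ to 3′ term (-0.066, -0.082 and -0.21). Fzd4, Fzd8, Fzd9 and Fzd10 were not tested.

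Among co-receptors and alternative receptors, Lrp6 and Ryk were tested and did not pass, while Lrp5, Ror1 and Ror2 were too dim to be tested. Lrp6, a co-receptor of the beta-catenin branch, measured 7.93, 8.22 and 7.78 in shock and 8.09, 8.64 and 8.18 in female, a difference of -0.33 (SE 0.16, adjusted p = 0.160) with overlapping groups. Ryk, a receptor with an inactive kinase domain, measured 7.46, 7.59 and 7.55 in shock and 7.76, 7.70 and 7.88 in female. All its female arrays lay above all shock arrays, with a difference of -0.25 (SE 0.10, adjusted p = 0.0994).

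Of 10 secreted antagonists 4 were tested, and Sfrp2 alone passed. Dkk3, a Dkk family member whose part in Wnt signalling is debated, measured 10.81, 10.53 and 10.84 in shock and 11.11, 10.35 and 11.13 in female. Female replicate 2 was its lowest array and the other female arrays its highest. The difference was -0.14 (adjusted p = 0.612) with all arrays and -0.40 (adjusted p = 0.0288) without that array. Frzb, a secreted protein with a Frizzled-like domain, measured 7.42, 7.28 and 7.32 in shock and 7.53, 6.76 and 7.30 in female, a difference of 0.14 (adjusted p = 0.551) that was -0.073 without female replicate 2. Sfrp1, a relative of Sfrp2, was at -0.022 (adjusted p = 0.912).

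**Figure D3:**
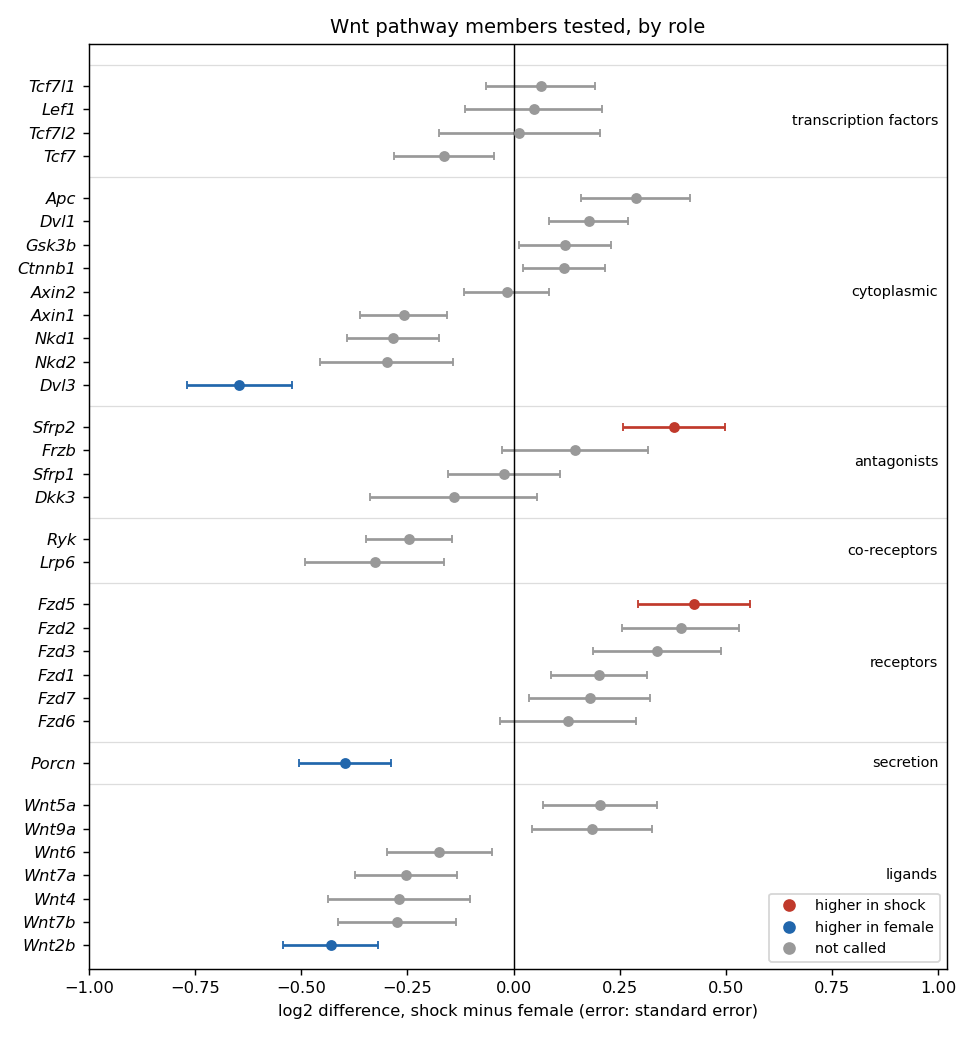
Difference of shock minus female (log2) with its standard error for the 33 tested members, ordered within each role; red and blue mark members that passed the test. The Frizzled receptors, at their brightest probe sets, all lie above 0, only Fzd5 of them called, and 5 of the 7 ligands lie below 0, only Wnt2b of them called.

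In the cytoplasm, 9 of 10 members were tested and Dvl3 was the 1 that passed. The brightest probe set of Dvl1, another Dishevelled gene, measured 12.82, 12.82 and 12.79 in shock and 12.60, 12.62 and 12.69 in female, a difference of 0.18 (SE 0.093, adjusted p = 0.180) without overlap. Ctnnb1, which encodes beta-catenin, measured 12.83, 12.77 and 12.75 in shock and 12.75, 12.62 and 12.62 in female, a difference of 0.12 (SE 0.096, adjusted p = 0.372). In Dvl1 all shock arrays lay above all female arrays, and in Ctnnb1 the nearest arrays of the groups were almost level. Among genes of the degradation complex, Apc was at 0.29 (adjusted p = 0.126), Gsk3b at 0.12 (adjusted p = 0.418), Axin1 at -0.26 (adjusted p = 0.0903) and Axin2, which beta-catenin itself induces, at -0.017 (adjusted p = 0.912). Nkd1 and Nkd2, inhibitors that act on Dishevelled, were at -0.28 (adjusted p = 0.0834) and -0.30 (adjusted p = 0.180). The remaining Dishevelled gene, Dvl2, was too dim to be tested (5.64 ± 0.35 in shock and 5.91 ± 0.23 in female, SD, n = 3).

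None of the 4 transcription factors passed (limma; 0 at an unadjusted p under 0.05), and their differences ran from -0.16 for Tcf7 to 0.064 for Tcf7l1. Tcf7l2 measured 9.32, 9.07 and 8.93 in shock and 9.01, 9.54 and 8.73 in female, a difference of 0.013 (SE 0.19, adjusted p = 0.964). Lef1 measured 8.92, 8.33 and 8.51 in shock and 8.35, 8.75 and 8.51 in female, a difference of 0.047 (SE 0.16, adjusted p = 0.844). In both genes the groups overlapped.

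Other probe sets of the same genes did not always go the same way. Of the 60 tested probe sets of members 14 passed, 5 higher in shock and 9 higher in female (20.8% of all probe sets tested passed), and 9 of the 14 were not the representative of their gene. Of 14 genes with over 1 tested probe set, 9 had probe sets of both signs. For Ctnnb1, a probe set annotated to end 4063 bases upstream of the most 3′ one measured 7.18, 7.496 and 7.45 in shock and 7.84, 8.34 and 7.94 in female. There all female arrays lay above all shock arrays, at -0.67 (SE 0.15, adjusted p = 0.0174), against 0.12 at the representative. Axin2 was at -0.48 (adjusted p = 0.0230) at a probe set ending 945 bases upstream. Tcf7l2 was at -0.79 (adjusted p = 0.0355) at one ending 20896 bases upstream, and at -0.49 without female replicate 2.

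Gsk3b was the 1 member with calls in both directions, 0.39 (adjusted p = 0.0355) at a probe set ending 35508 bases upstream of the most 3′ one and -0.38 (adjusted p = 0.0323) at one ending 1839 bases upstream. Dvl1 was at -0.43 (adjusted p = 0.0469) at its dimmer probe set. Fzd3 was at -0.36 (adjusted p = 0.0486) at a probe set ending 9880 bases upstream, and Wnt5a at 0.42 (adjusted p = 0.0424) at one ending 1935 bases upstream. Other tested Fzd3 probe sets with the same annotated end were at -0.21 (limma adjusted p = 0.182) and -0.027 (limma adjusted p = 0.874), not called. In 7 members the most 5′ and most 3′ tested probe sets lay 500 to 20000 bases apart, all tested ones on 1 strand. Fzd3 was left out by strand, and Gsk3b, Tcf7l2 and others by distance. Of these outermost pairs the 5′ one had the lower difference in all 7, against 77.7% of 2647 genes, although the Wnt5a probe set above, which lies between the outermost ones, was higher than the 3′ one. A limma fit of 5′ minus 3′ signal of such pairs within each array, over those genes, called 30.1% of them, 26.7% lower in shock. Among the 7 it called Axin2 alone, at -0.46 (SE 0.16, adjusted p = 0.0451).

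**Figure D4:**
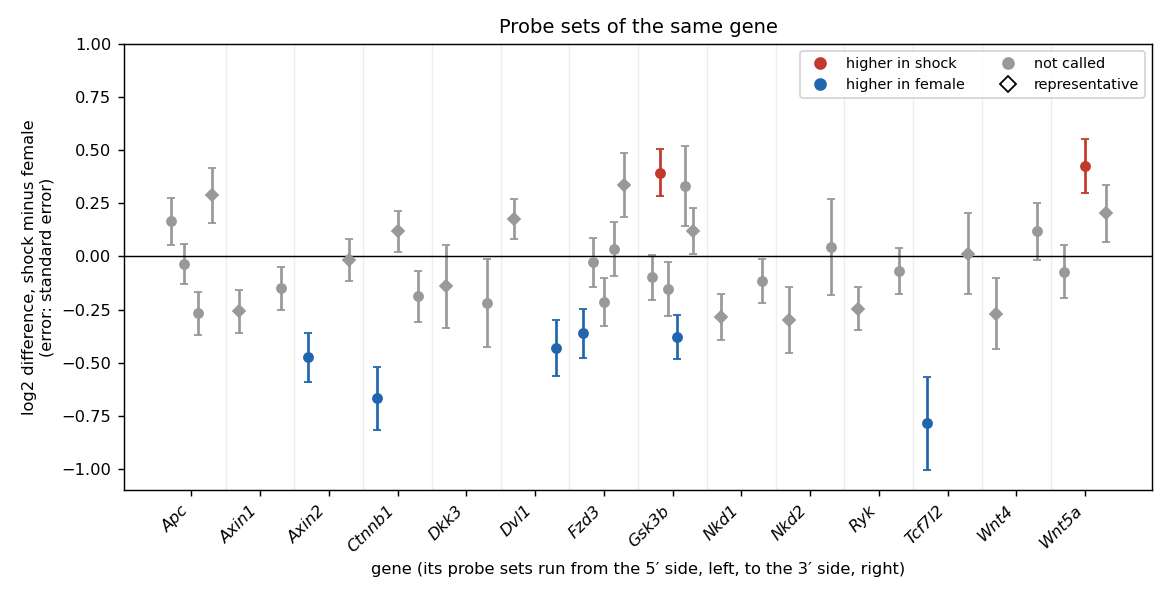
Difference of shock minus female (log2) with its standard error at each tested probe set of the 14 members with over 1, placed from the 5′ side (left) to the 3′ side (right) by annotated 3′ end, in no order where these ends coincide; diamonds are the representatives. In Ctnnb1, Axin2, Tcf7l2 and Dvl1 a probe set that was called higher in female stands beside a representative that was not called. A Fzd3 probe set annotated on the opposite strand is left out.

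Pathway genes outside the member list came from lists of general knowledge. Of 145 such genes 141 had a probe set and 116 were tested, with 9 calls in each direction (15.5%, against 20.0% of all genes tested), with a median of 0.081. Dact3, which encodes a Dishevelled-binding protein, measured 9.10, 9.72 and 9.26 in shock and 10.06, 10.86 and 10.15 in female. Its groups lay apart, with a difference of -0.996 (SE 0.22, adjusted p = 0.0175), whereas its relative Dact1 was higher in shock at 0.53 (adjusted p = 0.0238). Bcl9l, a partner of beta-catenin in the nucleus, was at -0.76 (adjusted p = 0.00633), the beta-catenin antagonist Cby1 at -0.53 (adjusted p = 0.0164) and the junction gene Jup at -0.73 (adjusted p = 0.00679). Ep300, an acetyltransferase gene, was at 0.63 (adjusted p = 0.0418), and at 0.38 without female replicate 2. The kinase genes Csnk1g2 and Csnk1g3, whose family phosphorylates Lrp6, went in opposite directions, at -0.74 (adjusted p = 0.00673) and 0.66 (adjusted p = 0.0458), the second at 0.38 without female replicate 2. With the 5′ to 3′ term in the fit Dact3 was at -0.18, Csnk1g3 at -0.046 and Bcl9l at -0.60, none of them called.

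Of 9 genes of the R-spondin branch, which strengthens Wnt signals, 5 were tested. Rspo2, an R-spondin, was higher in shock at 0.95 (adjusted p = 0.0297), as was its receptor gene Lgr4 at 0.60 (adjusted p = 0.0233). Without female replicate 2 they were at 0.62 and 0.45, both called, and with the 5′ to 3′ term at 0.013 and 0.15, neither called. Of 16 tested genes listed as beta-catenin targets in other tissues, 2 passed (12.5%, against 20.0% of all genes tested). These were Neurod1 (0.47, adjusted p = 0.0472) and Fgf9 (0.45, adjusted p = 0.0214), both higher in shock. The median of that list was 0.17, and 0.032 without female replicate 2, when Neurod1 was not called (adjusted p = 0.0604). Of 33 tested genes of the planar polarity and calcium branches, 2 were higher in shock and 2 in female (12.1%, against 20.0% of all genes tested). The kinase gene Rock1 was at 0.46 (adjusted p = 0.0485) and was not called without female replicate 2 (adjusted p = 0.0692).

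Markers of other cell types were measured beside those of neurons, and RMA gives no call of absence. All 8 general neuronal genes passed the filter, but so did all 14 astrocyte and all 16 oligodendrocyte genes. The counts below stand against calls for shock at 10.6% and for female at 9.40% of all genes tested. Of the 8 general neuronal genes 3 were higher in female and 0 in shock (median 0.028), with a log2 summed level of 15.25 to 15.32 in shock and 15.29 to 15.35 in female. Of 11 tested excitatory genes 2 were higher in shock and 3 in female (median 0.086), with summed levels of 13.70 to 13.82 and 13.86 to 13.99. Of 12 tested vascular genes 5 were higher in female and 0 in shock (median -0.36), with a log2 summed level of 12.12 to 12.18 in shock and 12.51 to 12.78 in female. Of the 14 astrocyte genes 5 were higher in female and 0 in shock (median -0.26), with summed levels of 14.19 to 14.29 and 14.20 to 14.53. Of the 16 oligodendrocyte genes 4 were higher in female and 0 in shock (median -0.32), with summed levels of 14.64 to 14.91 and 14.87 to 15.25. Of 12 tested inhibitory neuron genes 4 were higher in shock and 1 in female (median 0.22), with summed levels of 14.38 to 14.58 and 14.25 to 14.45. Microglial genes had 1 call for shock and 4 for female among 13 tested (median -0.10). Their summed levels were 12.14 to 12.30 and 12.09 to 12.48. Striatal and central amygdala genes had 2 and 2 among 10 (median -0.40), with summed levels of 12.50 to 12.59 and 12.39 to 13.14. Choroid plexus genes had 0 and 1 among 6 (median -0.22), with 12.69 to 13.07 and 13.16 to 13.70. Meningeal genes had 0 and 1 among 7 (median 0.067), with 12.68 to 12.87 and 13.05 to 13.46. Without female replicate 2 the medians turned sign for general neuronal (-0.0056), excitatory (-0.13) and meningeal genes (-0.034). The other medians were then -0.27 for vascular, -0.19 for astrocyte, -0.15 for oligodendrocyte and 0.15 for inhibitory neuron genes. They were -0.078 for microglial, -0.15 for striatal and central amygdala and -0.16 for choroid plexus genes. Summed levels of the excitatory, vascular, choroid plexus and meningeal lists were higher in every female array than in every shock array. A summed level follows the brightest genes of its list. Of the tested genes, 5 excitatory ones had a difference below 0 and 6 above, and 3 meningeal ones below and 4 above. For vascular genes these numbers were 9 and 3, and for choroid plexus genes 4 and 2. The part of these cell types in the differences of the members was not tested. In such bulk RNA a change in the number of cells of a type and in RNA per cell cannot be told apart.

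**Figure D5:**
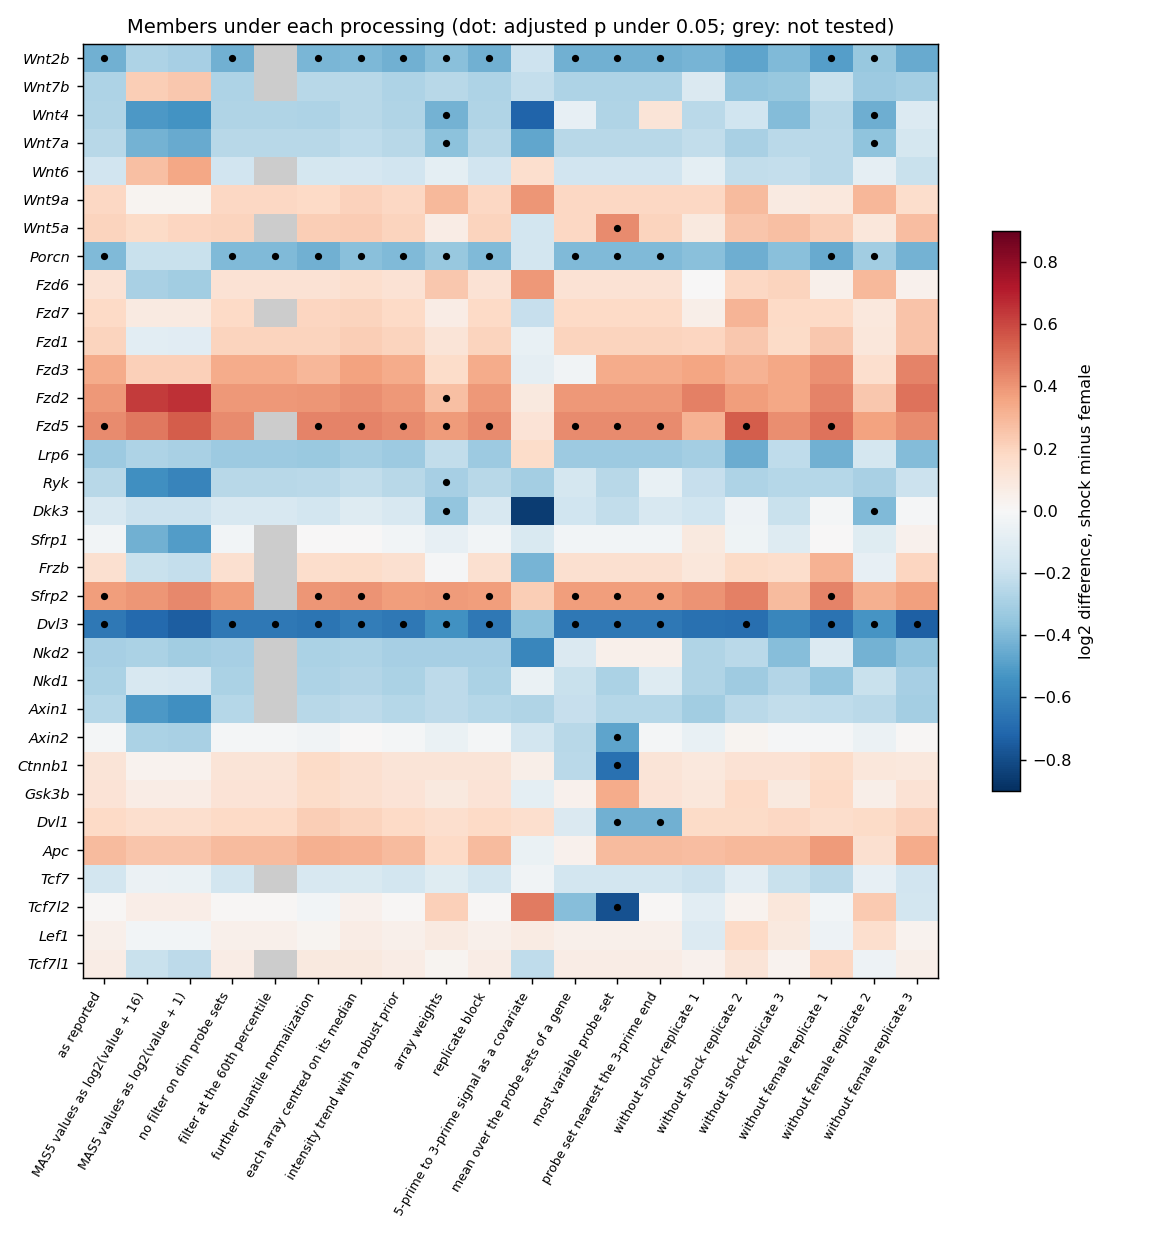
Difference of shock minus female (log2, colour) for the 33 tested members under each processing and without each array; dots mark an adjusted p under 0.05, and grey cells were not tested. Dvl3, Wnt2b, Porcn, Fzd5 and Sfrp2 keep their sign wherever tested, while their dots are missing on MAS5 values, with the 5′ to 3′ term, and without shock replicate 1 or 3. Only MAS5 values, the further normalizations and the 5′ to 3′ term could have turned these signs.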

How the data were processed

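Per the submitters' processing notes, the authors made log2 RMA values and MAS5 values from the same 6 arrays, and the deposited MAS5 values are intensity on a linear scale. Software versions and the MAS5 scaling target are not given here. Their comparison tables hold group averages and standard deviations in log2 (other columns of the tables), a signed fold score of female against shock, negative where shock is higher, and unadjusted and FDR p-values, per the file headers. Symbols and positions come from these tables.

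From the 45101 probe sets 64 controls were set apart. Shock minus female was fitted on the RMA values by group alone (limma 3.58.1, R 4.3.3, lmFit and eBayes) on 27022 probe sets, with 2-sided Benjamini-Hochberg adjusted p over all of them and a threshold of 0.05. A gene took its brightest probe set, _x_at only if no other. MAS5 values entered as log2(value + 16), which understates differences of dim probe sets. Alternatives were MAS5 with a pseudocount of 1, other filters, normalizations, priors, weights and representatives, the replicate number as a block, a term for the 5′ to 3′ signal, and each array left out. The within-gene fit of 5′ against 3′ probe sets was added after seeing the data. The GC box was also chosen after seeing the sequences. The steps were tested on simulated data.

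Values in every array are given for the called members and for the 2 members of highest mean in each role, and up to 12 pathway genes are named by size of difference among those called. Fgf9 and the other probe sets of a gene were named after their values were seen. The members and lists were chosen with earlier results of these data known. Same-numbered arrays deviated together at correlations of 0.012, 0.21 and 0.15 for numbers 1 to 3. These values cannot settle whether the arrays are paired. The labels do not say that the numbers pair the arrays, so the main fit held no pairing. With the number as a block more probe sets passed, and the same 5 members. The number of arrays limits the precision of every value.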

Additional observations from a re-analysis of the deposited data

How the results depend on the processing

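Of 19 alternatives, the 5 called members kept their sign in every one that gave a value. Most of these could not turn it. Other filters, the prior and the replicate block leave the difference itself unchanged. Array weights or leaving out 1 array could not turn it either, as shock and female arrays of these 5 did not overlap. Only MAS5 values, the further normalizations and the 5′ to 3′ term could have done so. Dvl3 was called in 14 of 19, Porcn in 12 of 19, Wnt2b in 11 of 18, Fzd5 in 10 of 18 and Sfrp2 in 8 of 18. Each of the 5 had 1 tested probe set. The most variable probe set and the one nearest the 3′ end therefore repeated the main call for these 5. The mean per gene reused the same values and could not turn their sign. The number of members called (5) was 0 on MAS5 values with either pseudocount and with the 5′ to 3′ covariate (limma; 9, 9 and 6 at an unadjusted p under 0.05), 2 with the filter at the 60th percentile, where 19 were tested, 10 with array weights and 11 with the most variable probe set, where 34 were tested. Variance over all 6 arrays includes the group difference. Picking the most variable probe set thus favours calls, and the 11 give no support. It ran from 0 to 6 when 1 array was left out, being 0 without shock replicate 1 or 3 (7 and 4 at an unadjusted p under 0.05), 2 without shock replicate 2 and 1 without female replicate 3. On the whole array 5614 calls (2516 for shock, 3098 for female) were made, against 543 (33 and 510) and 277 (15 and 262) on MAS5 values with pseudocounts of 16 and 1, 8752 with array weights, 1 with the covariate, and 321 to 6756 when 1 array was left out. The replicate block gave 7120 probe sets and the same 5 members, and changed no member's call. The median of members (0.01) was -0.096 and -0.099 on MAS5 values, -0.086 with the covariate, -0.10 with probe sets averaged per gene, -0.093 with the most variable one, and -0.064 to 0.035 when 1 array was left out.

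Signs turned in 20 uncalled members. On MAS5 values (pseudocounts 16 and 1) these were Frzb (-0.20 and -0.22), Fzd1 (-0.096 and -0.099), Fzd6 (-0.29 and -0.31), Lef1 (-0.026 and -0.027), Tcf7l1 (-0.20 and -0.23), Wnt6 (0.27 and 0.35) and Wnt7b (0.22 and 0.24). With the covariate they were Apc (-0.058), Frzb (-0.42), Fzd1 (-0.066), Fzd3 (-0.082), Fzd7 (-0.21), Gsk3b (-0.086), Lrp6 (0.16), Tcf7l1 (-0.23), Wnt5a (-0.17) and Wnt6 (0.15). With the mean per gene they were Ctnnb1 (-0.25), Dvl1 (-0.13), Fzd3 (-0.034) and Tcf7l2 (-0.39). With the most variable probe set they were Ctnnb1 (-0.67), Dvl1 (-0.43), Nkd2 (0.044) and Tcf7l2 (-0.79), and with the one nearest the 3′ end Dvl1 (-0.43), Nkd2 (0.044) and Wnt4 (0.12). Quantile normalization turned Sfrp1 (0.0020) and Tcf7l2 (-0.023), median centring Axin2 (0.0064) and Sfrp1 (0.00090), and array weights Frzb (-0.0091). With 1 array left out, Axin2 ran from -0.064 to 0.025, Frzb from -0.073 to 0.31, Lef1 from -0.12 to 0.18, Sfrp1 from -0.12 to 0.089, Tcf7l1 from -0.043 to 0.18 and Tcf7l2 from -0.17 to 0.23. The cause was not tested.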

Other observations

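The 4 members below the filter whose groups did not overlap were Wif1, Sfrp5, Fzd9 and Wnt3, a share near that of all dim genes (4 of 26, against 19.0%). Wif1, a secreted Wnt inhibitor, measured 3.81, 3.92 and 3.85 in shock and 3.26, 3.10 and 3.44 in female (log2), a difference of 0.59 (limma, SE 0.11, adjusted p = 0.0150) when no filter was applied. Sfrp5, a secreted antagonist, measured 6.23, 6.06 and 5.94 in shock and 6.27, 6.64 and 6.25 in female, a difference of -0.31 that did not pass (adjusted p = 0.142).

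A dim probe set that carries the symbol Lef1 is placed on chromosome 9 in the deposited table, while RefSeq has the gene on chromosome 3, and single probe sets of Fzd3 and Fzd6 are placed on the strand opposite to the other ones of their gene. None of these 3 was a representative.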
